A study of Gallus gallus with 24 samples.

Results

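This comparison set the mesoderm of chick midgut that carried a Hoxd13 virus against the mesoderm of hindgut that carried a control virus, over all genes with a measurable level. A gene was a member when it reached 1 CPM, a unit that corrects a gene's count for the size of its library, in at least 3 of the 7 libraries compared. Of the 17136 genes in the table, 12895 met this rule and 4241 did not. The libraries were 3 of Hoxd13 midgut and 4 of control hindgut. Hoxd13 midgut 4 was kept out of the test because it had few detected genes, and it is shown beside the results as a check.

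RNA sequencing of messenger RNA was performed on chick (Gallus gallus) intestinal mesoderm from which the endoderm had been peeled away by hand. RCAS is an avian retroviral vector that copies itself in infected cells. Every group received RCAS by electroporation in ovo of splanchnic lateral plate mesoderm at HH17, at the level of the midgut according to the protocol. The hindgut libraries carried RCAS-mGFP, a GFP reporter, and the Hoxd13 midgut libraries carried RCAS-Hoxd13. Midgut with RCAS-mGFP, 4 libraries, is given as a reference beside some results. The labels name embryonic day 12 and day 14, but the tables for both ages held the same values (0 of 205632 differed), so the age of these libraries is not known. The labels do not say how many embryos entered a library, whether replicates came from separate embryos, or how much of each gut was infected. The p-values therefore measure the spread between these libraries, which may be technical. Virus and gut region both differ between the groups, and their parts in a difference cannot be told apart from this comparison alone.

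Hoxd13 encodes a homeodomain transcription factor at the end of the HoxD cluster, and in vertebrate embryos genes at this end are used in the most posterior tissues, the hindgut among them. The midgut gives rise to the small intestine and the hindgut to the large intestine. The splanchnic mesoderm forms the smooth muscle, connective tissue and outer lining of both, and its signals pattern the epithelium that it surrounds. In chick, Hoxd13 expressed in midgut mesoderm is known to shift the overlying epithelium toward a hindgut character. The comparison with hindgut asks how far the mesoderm of such a midgut still differs from the tissue in which the gene is normally active.

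The 7 libraries held 9323998 to 10745459 counts each and had counts in 14565 to 14832 genes. Hoxd13 midgut 4 held 7607185 counts, in 13480 genes. Genes carry Ensembl IDs only, and the reference gene table at hand had 0 filled Ensembl cells, so no symbol could be attached here. The level of Hoxd13 itself could therefore not be checked, and markers of smooth muscle, neurons, epithelium and other cell types could not be read. Reads of the virus's own Hoxd13 insert, where they map to the chick gene, could count among the higher genes and were not separated. In such tissue samples fewer cells of a type and less RNA per cell cannot be told apart.

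A difference between Hoxd13 midgut and hindgut was called in a small part of the genes measured. A gene not called is not thereby shown to be equal in both groups. In Hoxd13 midgut 172 genes were higher and 242 were lower (edgeR quasi-likelihood test, adjusted p under 0.05), 1.33% and 1.88% of the 12895 genes and 3.21% together. The higher genes differed by a median of 2.13-fold, with quartiles of 1.70-fold and 3.33-fold. The lower genes differed by a median of 2.31-fold, with quartiles of 1.73-fold and 3.95-fold. A difference of at least 2-fold was found in 94 of the higher and 142 of the lower genes, 236 or 1.83% of all. At 8-fold, a log2 fold change of 3, there were 10 higher and 28 lower genes. Over all members the median log2 fold change was -0.01, its median standard error was 0.17 and the median absolute log2 fold change was 0.23.

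The groups did not overlap in any of the 414 called genes: each Hoxd13 midgut library lay on the same side of all 4 hindgut libraries. The same held in 2417 of all members (18.7%), 1226 with Hoxd13 midgut above (9.51%) and 1191 with it below (9.24%). An unadjusted p under 0.05 was reached by 2897 genes (22.5%), of which 1277 were higher and 1620 lower.

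**Figure D1:**
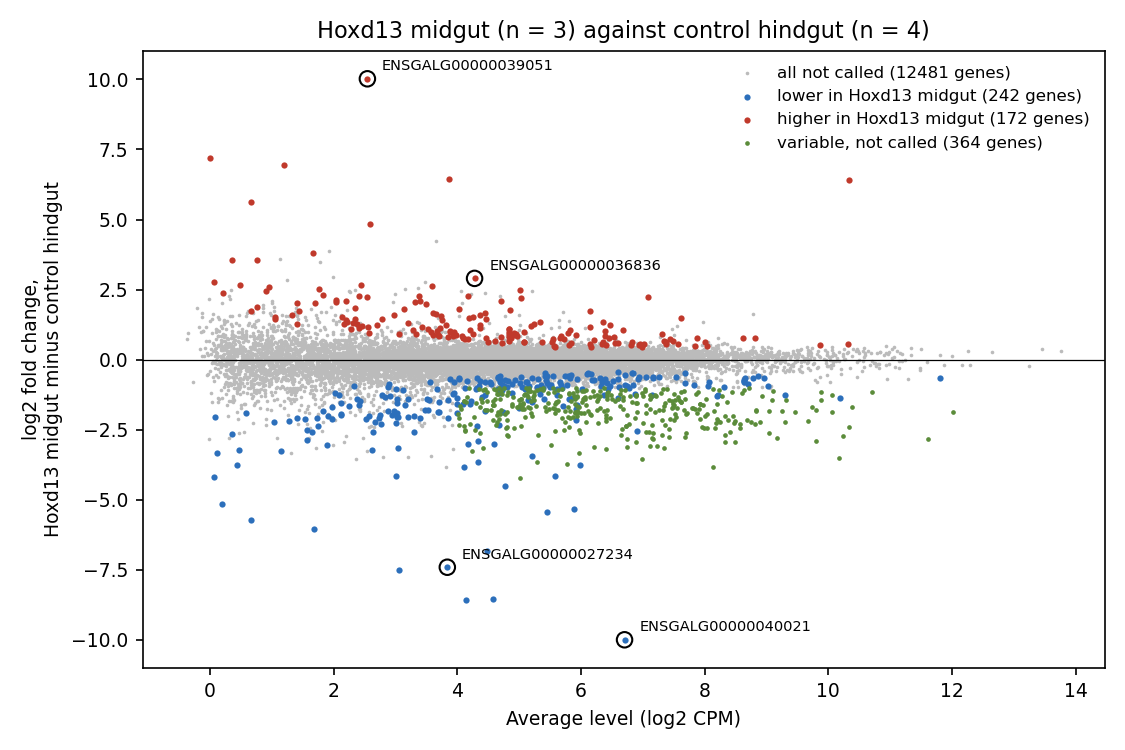
Each point is a gene, with its average level (log2 CPM) on the x axis and the log2 fold change, Hoxd13 midgut minus control hindgut, on the y axis. The 172 higher and 242 lower called genes flank a body of uncalled genes near 0, the 4 named genes are ringed, and 364 uncalled genes form a cloud below the body at middle and high levels.

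Called genes spanned the levels of all members. In the group where the gene was higher, the mean was under 10 CPM for 40 of the 172 higher genes, from 10 to 100 CPM for 95, and at least 100 CPM for 37. For the 242 lower genes these numbers were 47, 143 and 52, and for all members, by the higher of both group means, 3075, 7478 and 2342. As medians over genes, the higher genes had means of 29.9 CPM in Hoxd13 midgut and 12.5 CPM in hindgut, and the lower genes had 14.7 and 33.5 CPM. Where both groups had a mean of at least 100 CPM, the folds were smaller, but this limit on the lower group itself leaves out large folds. It kept 20 of the 37 higher and 25 of the 52 lower genes, so these folds do not describe all abundant genes. There the 20 higher genes differed by a median of 1.52-fold and at most 2.82-fold, and the 25 lower genes by a median of 1.68-fold and at most 2.60-fold.

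Genes were called at every level, in 2.67% to 4.07% of a class, while the smallest difference called fell with level up to the middle classes. Below an average of 2 log2 CPM, 47 of 1697 genes were called, and the smallest called absolute log2 fold change was 1.28. From 2 to 4 log2 CPM, 114 of 2802 genes were called, with a smallest value of 0.70. From 4 to 6 it was 154 of 4934 genes and 0.44, and from 6 to 8 it was 76 of 2848 genes and 0.45. At 8 log2 CPM or more, 23 of 614 genes were called, 6 higher and 17 lower, and the smallest value was 0.49. The median standard error fell from 0.41 in the lowest class to 0.12 and 0.13 in the highest 2.

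The rule on CPM lets a gene in through the group where it is high. Of the members, 11838 had at least 1 CPM in all 7 libraries. Genes at this level in exactly 3 libraries, just inside the limit, numbered 267 with a median of 1.07 CPM, and those in exactly 2, just outside, numbered 280 with a median of 0.779 CPM. Through the Hoxd13 midgut libraries alone 36 genes were kept, and through the hindgut libraries alone 61. Of these 16 and 22 were called, and their direction was fixed by that entry.

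Among called genes with an average of at least 2 log2 CPM, the one furthest above hindgut in fitted fold was ENSGALG00000039051. It was at 16.4, 11.5 and 10.1 CPM in Hoxd13 midgut 1, 2 and 3 and had 0 counts in each of the 4 hindgut libraries. All Hoxd13 midguts were high and all hindguts empty, with no overlap, which was a condition for naming a gene. This one met the CPM rule through Hoxd13 midgut alone, so its direction was fixed by that entry. Its mean of 12.6 ± 3.29 CPM (SD, n = 3) was at least 42.6-fold higher than hindgut, taking 3 counts per library, 0.297 CPM on average, as the limit that a count of 0 allows (edgeR adjusted p = 0.000969). Control midgut was at 24.2, 23.8, 23.5 and 28.9 CPM, above every Hoxd13 midgut, with a mean of 25.1 ± 2.56 CPM (SD, n = 4), and Hoxd13 midgut 4 was at 8.34 CPM. In a fit that also held the control midguts, where 2.37% of genes were called between Hoxd13 midgut and control midgut, the fall from control midgut to Hoxd13 midgut passed the test (edgeR adjusted p = 0.0380). The gene was thus lower in Hoxd13 midgut than in control midgut and still far above hindgut.

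ENSGALG00000036836 had the smallest p of the higher genes. Hoxd13 midgut 1, 2 and 3 were at 32.1, 39.4 and 38.3 CPM, and hindgut 1 to 4 were at 5.26, 4.10, 4.54 and 5.63 CPM. The Hoxd13 libraries were all high and close together, at 36.6 ± 3.95 CPM (SD, n = 3) against 4.88 ± 0.688 CPM (SD, n = 4). The difference was 7.46-fold (edgeR adjusted p = 8.46e-05). Control midgut lay in the range of Hoxd13 midgut and above, at 33.5, 39.7, 48.7 and 45.7 CPM. Between Hoxd13 midgut and control midgut the log2 fold change of -0.21 ± 0.15 (SE) missed the threshold (edgeR adjusted p = 0.416), and Hoxd13 midgut 4 was at 36.4 CPM. Between hindgut and control midgut, where the same fit called 6.89% of genes, it was -3.10 ± 0.16 (SE, edgeR adjusted p = 5.37e-07). That fit of 11 libraries called 761 genes between Hoxd13 midgut and hindgut, against 888 between hindgut and control midgut. Its shares are therefore not to be set beside the 3.21% from the fit of 7 libraries.

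ENSGALG00000040021 had the largest fitted fold of the lower genes with the same minimum level. The hindgut libraries were at 225, 117, 34.4 and 322 CPM for numbers 1 to 4, and Hoxd13 midgut 1, 2 and 3 were at 0.401, 0.0892 and 0 CPM, 5 counts in all. Hindgut was high in every library but spread widely, with hindgut 3 lowest, at 175 ± 125 CPM (SD, n = 4). The gene met the CPM rule through hindgut alone, so its direction was fixed by that entry. The ratio of hindgut to Hoxd13 midgut was 1049.7, with an exact 95% interval of 449.6 to 3234 that covers counting error only (edgeR adjusted p = 0.0236). Control midgut 1 to 4 and Hoxd13 midgut 4 had 0 counts. In the fit with control midgut, the difference between Hoxd13 midgut and control midgut, 5 counts against 0, missed the threshold (edgeR adjusted p = 0.688). The size of that fold could not be estimated from 0 counts. The call against hindgut was lost without Hoxd13 midgut 1, 2 or 3, without hindgut 1, 2 or 4, and with limma voom. The edgeR or voom adjusted p was then 0.0520 to 0.148, with log2 fold changes of -9.43 to -11.52.

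ENSGALG00000027234, with the smallest p of all genes, was the steadiest of the lower genes named. It was at 23.9, 25.4, 25.1 and 20.1 CPM in hindgut 1 to 4 and at 0.201, 0.0892 and 0.0978 CPM in Hoxd13 midgut 1, 2 and 3, which held 2, 1 and 1 counts. Hindgut libraries stood together at 23.6 ± 2.47 CPM (SD, n = 4), and every Hoxd13 midgut was near 0. This gene too met the CPM rule through hindgut alone, which fixed its direction. The ratio was 187, with an exact 95% interval of 72.7 to 686 for counting error (edgeR adjusted p = 9.08e-06). Control midgut 1 to 4 and Hoxd13 midgut 4 had 0 counts here too, so the few counts in Hoxd13 midgut 1 to 3 were the only ones in any midgut library. In the fit with control midgut, this excess of 4 counts against 0 missed the threshold (edgeR adjusted p = 0.0933). With 0 counts in control midgut the size of the fold could not be estimated.

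**Figure D2:**
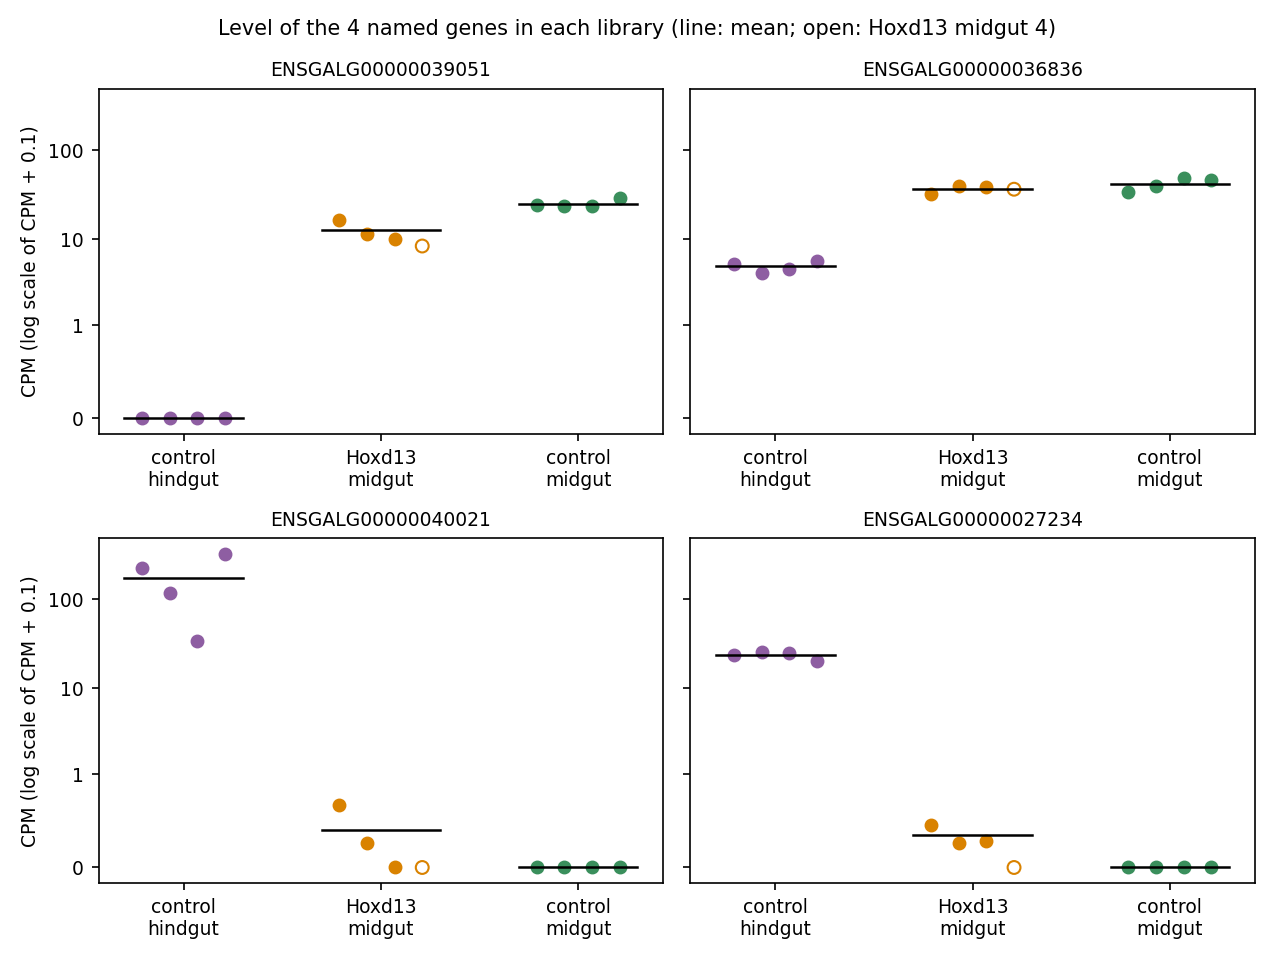
Level of the 4 named genes in each library, as CPM on a log scale of CPM + 0.1, in control hindgut, Hoxd13 midgut and control midgut, with a line at each mean and Hoxd13 midgut 4 open and outside the mean. ENSGALG00000039051 and ENSGALG00000036836 are higher in both kinds of midgut than in hindgut, and ENSGALG00000040021 and ENSGALG00000027234 are high in hindgut, at 175 and 23.6 CPM on average, and near 0 in all midguts.

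The 16 and 22 called genes that met the CPM rule through a single group are described here by their level in control midgut, since their direction was fixed by that entry. The 16 higher genes were under 1 CPM in every hindgut library, and their means in Hoxd13 midgut reached 33.0 CPM with a median of 3.13 CPM. Control midgut was at 1 CPM or more in all 4 libraries for 11 of these 16, under 1 CPM in all for 1, and mixed for 4. The 22 lower genes were under 1 CPM in every Hoxd13 midgut library, and their hindgut means reached 182 CPM with a median of 3.33 CPM. The highest was ENSGALG00000040021, given above as 175 CPM with scaling over 12 libraries in place of 7. Control midgut was under 1 CPM in all 4 libraries for 16 of these 22 and mixed for 6, and 7 of them had 0 counts in all control midguts. None of the 22 had 0 counts in all of Hoxd13 midgut 1, 2 and 3, although 12 had 3 counts or fewer in each. Hoxd13 midgut 4, outside the test, had 0 counts in 14 of the 22, and in 313 of all 12895 members. Of the 16 higher genes, it was under 1 CPM in 5 and had 0 counts in 2. Of the 22, 6 had a hindgut mean of at least 10 CPM. Of these 6, 5 had 0 counts in all control midguts and 5 had 0 counts in Hoxd13 midgut 4.

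Control midgut, which entered none of these calls, showed where the called genes stand without Hoxd13. The hindgut libraries are shared between the comparisons, so the values are given side by side and untested. In the fit of 11 libraries the 172 higher genes had a median log2 fold change of 1.08 in Hoxd13 midgut against hindgut, 0.29 in Hoxd13 midgut against control midgut, and -0.61 in hindgut against control midgut. The 242 lower genes had medians of -1.22, -0.02 and 1.21 for the same comparisons, and all members had -0.02, 0.02 and -0.00. Single genes lay on both sides of control midgut. In Hoxd13 midgut against control midgut the lower genes had quartiles of -0.39 and 0.40, with 48 of the 242 at 2-fold or more in either direction. The higher genes had quartiles of -0.06 and 0.65, with 29 of the 172 at 2-fold or more, as were 991 of the 12895 members.

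Library by library the picture was similar. The median log2 CPM of the higher genes, relative to the hindgut mean, was 1.06, 1.00 and 1.11 in Hoxd13 midgut 1, 2 and 3 and 0.52, 0.62, 0.66 and 0.68 in control midgut 1 to 4. For the lower genes it was -1.03, -1.21 and -1.16 in Hoxd13 midgut and -1.16, -1.24, -1.01 and -1.13 in control midgut. In the higher genes every control midgut therefore lay between hindgut and Hoxd13 midgut in this median, and in the lower genes the medians of both kinds of midgut covered nearly the same range. These genes were chosen for their distance from hindgut, which sets the sign in Hoxd13 midgut 1 to 3 and favours larger values there. Control midgut was not part of that choice, so the order of these medians was not tested.

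**Figure D3:**
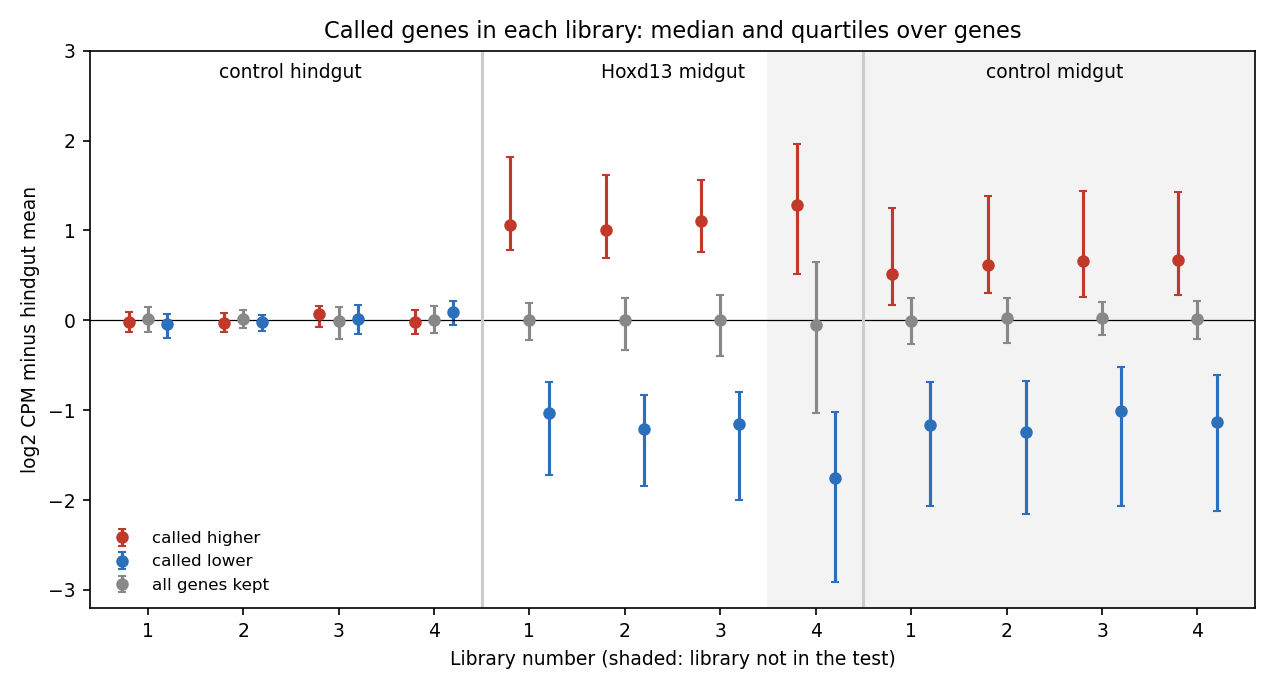
Median and quartiles, over genes, of log2 CPM minus the hindgut mean in each of 12 libraries, for the called higher, called lower and all member genes, with libraries outside the test shaded. The higher genes reach 1.00 to 1.11 in Hoxd13 midgut 1 to 3 and 0.52 to 0.68 in control midgut, and the lower genes lie near -1 in both.

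Hoxd13 midgut 4 had no part in choosing these genes, but the 4 hindgut libraries it is set against did. It lay above all 4 hindgut libraries in 150 of the 172 higher genes (87.2%) and below all 4 in 223 of the 242 lower genes (92.1%). Over all members it lay above all hindguts in 39.8% and below all in 43.5%, so most genes of this library were outside the hindgut range. The median difference from the hindgut mean was 1.29 in the higher and -1.76 in the lower genes, against -0.05 over all members. With it in the test, edgeR called 68 genes higher and 84 lower, and 151 of these 152 were among the 414.

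A further set of genes had lower fitted values in Hoxd13 midgut but was not called. It was picked from the plot of fold change against level, after the values were seen, as the uncalled genes with an average of at least 4 log2 CPM and at least 2-fold lower in Hoxd13 midgut. There were 364 such genes, and 23 met the same limits in the higher direction. Their median fitted log2 fold change was -1.70 with a median standard error of 0.68, and their adjusted p ran from 0.0531 to 0.412. The groups overlapped in 327 of the 364 and not in 37, against 2417 of all 12895 members without overlap (18.7%). An unadjusted p under 0.05 was reached by 215 of the 364, against 2897 of all members (22.5%). DESeq2 called 156 of the 364, against 1107 of all 12877 genes it tested. An edgeR fit with the replicate numbers as a block, without hindgut 4, called 331 of the 364, against 1246 of all 12895. Without hindgut 4 and without the block, edgeR called 0 of the 364, against 210 of all 12895. The labels do not say that a number marks a pair. The limits on fold and call bear on each of these counts, which are given as a description.

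These 364 genes varied together between libraries of a group. They took 11.2%, 6.96%, 2.79% and 14.7% of all counts in hindgut 1 to 4, and 4.09%, 2.65% and 1.36% in Hoxd13 midgut 1, 2 and 3. Hindgut 3 thus lay among the Hoxd13 midguts, and the other hindguts lay above them. Of the hindgut libraries, hindgut 3 was lowest in 351 of the 364 genes and hindgut 4 highest in 302. Hoxd13 midgut 1 was the highest of its group in 334 genes and Hoxd13 midgut 3 the lowest in 355. The share was 17.2%, 8.56%, 10.6% and 13.3% in control midgut 1 to 4, so high shares occurred in both regions, and it was 0.383% in Hoxd13 midgut 4. Every Hoxd13 midgut thus lay below every control midgut. The genes were picked as lower in Hoxd13 midgut 1 to 3, which favours low shares there, and this difference was not tested. The called gene ENSGALG00000040021 had the same order of hindgut libraries, at 225, 117, 34.4 and 322 CPM in hindgut 1 to 4. Its Hoxd13 midgut 1, 2 and 3 also fell in that order, on 5 counts in all. In control midgut, where the share was high, it had 0 counts. A link between this gene and the 364 genes was not tested.

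A large spread within groups was built into the choice of these genes, since a gene at this level with such a fold is otherwise called. Their median standard deviation of log2 CPM over the 4 hindgut libraries was 1.06, against 0.19 in the called higher genes, 0.19 in the called lower genes and 0.21 over all members. The low values of the called genes follow partly from their choice as well. Which cells or state these genes mark cannot be read without symbols, and their part in the other differences was not tested. A fit without them left out no called gene, adjusted over fewer tests and estimated scaling and spread anew. It called 221 genes higher and 307 lower, with all 414 called genes among them. Which of these changes raised the number was not tested.

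**Figure D4:**
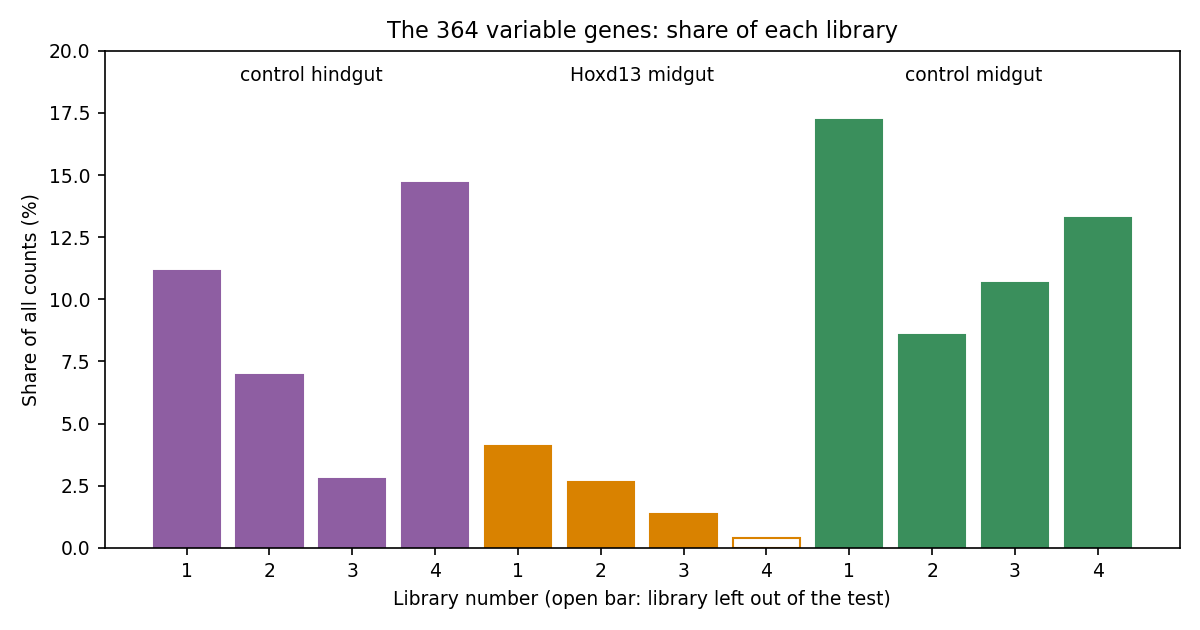
Share of all counts in each library taken by the 364 variable genes, as bars by library number in control hindgut, Hoxd13 midgut and control midgut. Hindgut runs from 2.79% to 14.7%, Hoxd13 midgut 1 to 3 from 1.36% to 4.09%, and the open bar, Hoxd13 midgut 4, stands at 0.383%.

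Over all members the distances between the groups overlapped those within them but reached higher, and those of Hoxd13 midgut 3 lay above all within-group distances. The median absolute difference in log2 CPM between a pair of libraries was 0.18 to 0.27 within hindgut (6 pairs), 0.23 to 0.26 within Hoxd13 midgut 1 to 3 (3 pairs), and 0.23 to 0.41 between these groups (12 pairs). Hoxd13 midgut 1 was at 0.23 to 0.28 from the hindguts, Hoxd13 midgut 2 at 0.27 to 0.37 and Hoxd13 midgut 3 at 0.30 to 0.41, while Hoxd13 midgut 4 was at 0.78 to 0.88. Between control midgut and hindgut it was 0.20 to 0.36 (16 pairs), and between Hoxd13 midgut 1 to 3 and control midgut 0.23 to 0.38 (12 pairs). The median standard deviation per gene was 0.21 in both groups compared.

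Leaving out 1 library moved the number of called genes. Without Hoxd13 midgut 1, 2 or 3 there were 319, 153 and 194, and without hindgut 1, 2, 3 or 4 there were 238, 201, 560 and 210. Of the 414 genes, 111 were called with all 7 libraries and without each of them in turn, 61 higher and 50 lower. The excess of lower genes turned without Hoxd13 midgut 2, where 94 were higher and 59 lower, and with library totals in place of TMM scaling, where 202 were higher and 177 lower. The share of higher genes was 41.5% with TMM, 53.3% with library totals and 61.4% without Hoxd13 midgut 2.

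**Figure D5:**
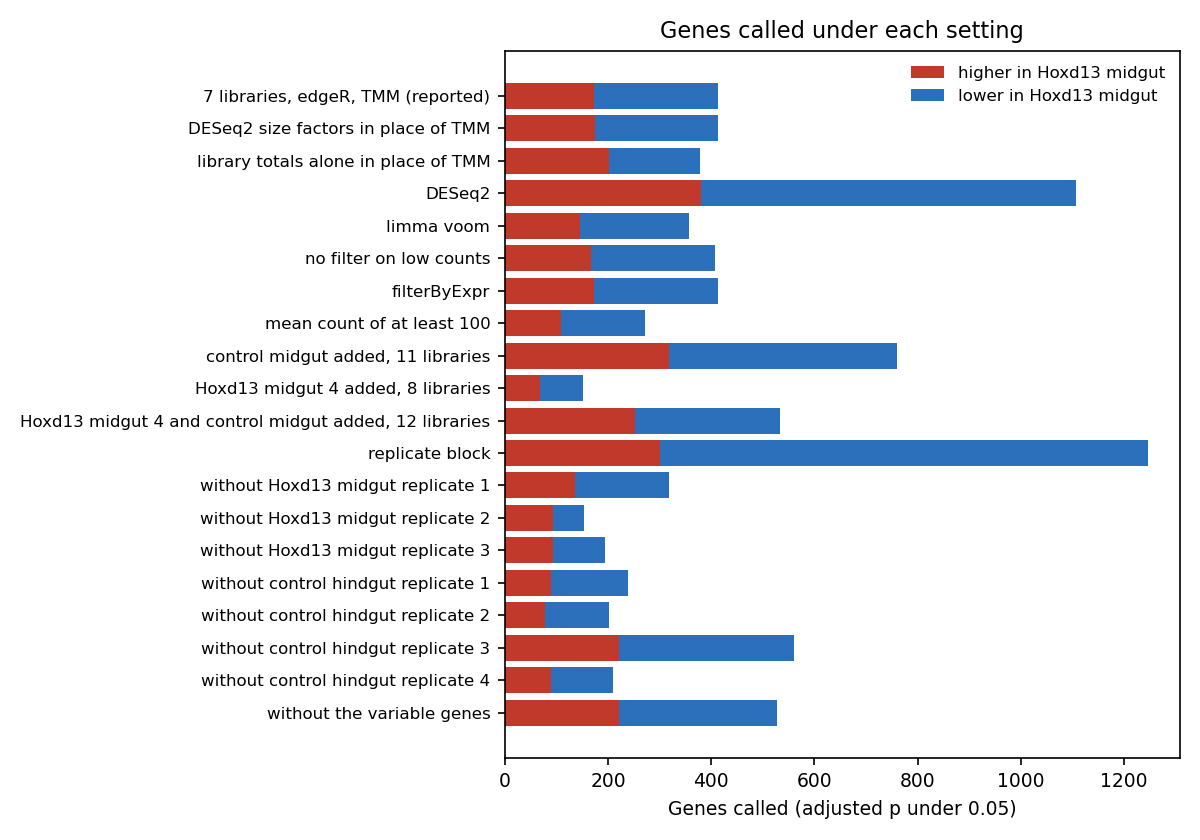
Genes called at an adjusted p under 0.05 under the reported setting and each alternative, as bars split by direction. The count runs from 152 with Hoxd13 midgut 4 added to 1246 with the replicate numbers as a block and hindgut 4 left out. Lower genes outnumber higher ones in 17 of 19 alternatives.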

How the data were processed

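Per the labels, the TruSeq Stranded mRNA kit was used. The authors deposited estimated counts in whole numbers, 1 per Ensembl ID and library. Salmon, DESeq2 and GRCg6a are named per the submitters' processing notes, with versions and roles not given in the sources used here. Groups came from the sample titles, and 1 of the 2 identical tables was used.

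The test used edgeR 4.0.16 under R 4.3.3 (TMM scaling, robust quasi-likelihood F test, no covariate, Benjamini-Hochberg adjustment over 12895 genes, called under 0.05). Standard errors derive from the F statistic. Levels of named genes and of single libraries use TMM factors over 12 libraries, and log2 CPM a prior count of 2. Group means over sets of called genes use TMM factors over the 7 libraries compared. The test was checked on simulated data in which genes varied independently of each other, so variation shared between genes was not covered. DESeq2 1.42.0 and limma 3.58.1 served as alternatives.

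Without symbols, the rule for named genes took in each direction the called ID with the largest fold change and the one with the smallest p, among non-overlapping IDs with an average log2 CPM of 2 or more. The 18 gene lists matched 0 IDs and were not used, nor were sequences. The members, lists and tests were chosen with earlier results of these data known. Chi-square over degrees of freedom between replicates of a group was 17.3 to 109, so each counted as a separate library, and intervals and limits cover counting error only.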

Additional observations from a re-analysis of the deposited data

Results flagged for a closer look

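Of 18 sets of 4 values examined for a library far from the others of its group, 3 held one. Sets with 0 counts in all 4 libraries could hold none, so this number was not compared with chance. Hoxd13 midgut 4 had counts in 13480 genes, against 14639 to 14809 in Hoxd13 midgut 1 to 3. That low number was known beforehand, as the reason for keeping this library out of the test. The 100 genes with the most counts made up 34.0% of this library and 22.8% to 23.8% of the other Hoxd13 midguts. Control midgut 4 had 28.9 CPM of ENSGALG00000039051, against 23.5 to 24.2 CPM in the other control midguts. Control midgut entered none of the 414 calls against hindgut. It did enter the test of this gene between Hoxd13 midgut and control midgut (edgeR adjusted p = 0.0380).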

How the results depend on the processing

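The count of 414 called genes was 1107 with DESeq2, 271 at a mean count of at least 100, where fewer genes were tested, 761 with control midgut added, 152 with Hoxd13 midgut 4 added, and 153 to 560 without single libraries. The 236 genes at 2-fold or more were 545 with DESeq2, 119 at a mean count of at least 100, 137 with Hoxd13 midgut 4 added, and 120 to 320 without single libraries. The share of higher genes, 41.5%, was 34.4% with DESeq2, 53.3% with library totals, 47.3% with Hoxd13 midgut 4 and control midgut added, and 37.4% to 61.4% without single libraries. The cause of these shifts was not tested. With the replicate numbers as a block and hindgut 4 left out, 1246 genes were called, 587 of them at 2-fold or more. Of the 1246, 24.1% were higher, and 331 of the 364 variable genes were among them. The same libraries without the block gave 210 called genes, 150 at 2-fold or more, with 42.4% of the 210 higher. They held 0 of the variable genes. The labels do not say that a number marks a pair, so the numbers were not taken as pairs. Deviations of same-numbered Hoxd13 midgut and hindgut libraries correlated at 0.111, -0.318 and 0.386 for numbers 1 to 3. Those of differently numbered libraries correlated at -0.419 to 0.274. Deviations within a group are tied to each other, so these values cannot decide whether the numbers mark pairs. No other setting moved these counts by more than 1.5 times. The fit without the variable genes was chosen after seeing the data. Named genes other than ENSGALG00000040021 kept their call in every alternative that tested them. The count of genes with no overlap was 2080 to 2572, and the spread within groups stayed at 0.20 to 0.21. With library totals Hoxd13 midgut 4 lay on the called side in 366 genes against 373. These were 75.6% of the higher and 97.5% of the lower genes, where 28.8% of all members lay above and 52.0% below all hindguts. Below 2 log2 CPM the median standard error was 0.41, and no absolute log2 fold change under 1.28 was called with these libraries.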
